A study of Rattus norvegicus with 6 samples.

Results

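The genes of myosin light chain phosphorylation were taken from the gene counts of cultured vascular smooth muscle (VSM) cells by their symbols. They are the regulatory light chain gene Myl9, the kinase genes Mylk, Rock1, Rock2 and Dapk3, the phosphatase genes Ppp1r12a, Ppp1r12b, Ppp1r12c and Ppp1cb, and the phosphatase inhibitor gene Ppp1r14a. All 10 symbols had 1 row each among the 14475 genes. The VSM cells were isolated from the soleus feed artery (SFA), which supplies the soleus muscle, of male Fischer 344 rats, and were grown in medium with serum before total RNA was extracted, from which libraries of polyadenylated RNA were made. Young rats were 4 months old and old rats 24 months old, with 3 libraries in each group and no treatment named in the labels. The samples come from cultures and not from the vessel wall, and the sources give 3 rats per group.

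Smooth muscle contracts when the regulatory light chain of myosin is phosphorylated. Calcium-bound calmodulin activates myosin light chain kinase, which places the phosphate, and myosin phosphatase removes it. The phosphatase joins a catalytic subunit to a targeting subunit that holds it on myosin. The ROCK kinases and ZIP kinase inhibit the phosphatase through the targeting subunit and can phosphorylate the light chain themselves, and CPI-17, the product of Ppp1r14a, blocks the catalytic subunit once it is phosphorylated. In resistance arteries the balance of these enzymes sets vascular tone, partly independently of calcium. RNA levels do not show how much of any of these proteins was phosphorylated.

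Total counts on genes ranged from 44235674 to 59700887 per library, and the 10 genes together took 0.260% to 0.374% of the counts of a young library and 0.129% to 0.162% of those of an old library. All 10 smooth muscle markers checked had a row, although desmin (Des) was at most 2.99 CPM (counts scaled to a common library total after normalization by the trimmed mean of M values, TMM) in a library. Their summed level was 15101 to 26532 CPM in young and 5720 to 8511 CPM in old. Of 10 fibroblast markers 9 had a row, with sums of 680 to 1098 CPM in young and 1092 to 2030 CPM in old. Decorin (Dcn), with the highest log2 fold change of the list (4.58), was at 1.16 to 19.9 CPM in young and 26.0 to 411 CPM in old. Mfap5 had the lowest (-0.16), and its groups overlapped. In 3 of the 9 all old libraries lay above the young ones, as in 14.5% of all genes, and the other markers overlapped. Of 12 skeletal muscle markers 6 had a row, with 174 to 391 CPM in young and 36.4 to 67.3 CPM in old. Among these, Acta1, Myh1 and Myh2 had old libraries all below young ones, whereas Tnnt3 overlapped, at 7.78 to 12.8 CPM in young and 10.6 to 28.4 CPM in old. Of 10 endothelial markers 6 had a row, with sums of 32.9 to 45.2 CPM over all libraries. In a library Egfl7 was at most 31.7 CPM, Tek at most 16.8 CPM and Pecam1 at most 0.765 CPM. Only Erg, 1 of the 6, had old libraries all below young ones, as had 14.7% of all genes. The sums were 0.407 to 2.90 CPM for macrophage markers (2 of 9 with a row) and 13.7 to 86.6 CPM for Schwann cell markers (4 of 6). A marker without a row cannot be read as absent, because 1518 genes had no symbol and could not be matched. The 6 proliferation genes summed to 352 to 548 CPM in young and 97.6 to 384 CPM in old. The highest old value was that of old replicate 1, which stood apart from the other old libraries at 123 and 97.6 CPM. The part of these markers in the results below was not tested. In bulk RNA, fewer cells of a type and less RNA per cell cannot be told apart.

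Of the 10 genes, 9 had a log2 fold change below 0 in old against young VSM cells, as did 48.0% of all genes. The log2 fold changes were -2.15 to -1.76 for Mylk, Myl9 and Ppp1r14a, -1.05 for Rock2, -0.59 to -0.52 for Ppp1r12a, Rock1 and Ppp1r12b, and -0.15 to 0.035 for Dapk3, Ppp1cb and Ppp1r12c. In 7 of the 10 genes the 3 old libraries all lay below the 3 young libraries, a pattern shown by 14.7% of all genes. In the test of all 14475 genes with edgeR (quasi-likelihood F test), a call needed an adjusted p under 0.05 together with a log2 fold change beyond 1 in either direction. By this rule 0 of the 10 genes and 0.00691% of all genes were called. With an adjusted p under 0.1 in its place edgeR called 3, Myl9, Ppp1r14a and Rock2, where 1.52% of all genes were called lower in old. Without old replicate 1 the original rule called these same 3 genes, and 3.47% of all genes lower in old, and it called 0 of the 10 when any other library was left out. At an unadjusted p under 0.05 edgeR gave 7 of the 10, all lower in old, compared with 11.5% of all genes in that direction. The DESeq2 Wald test, which the study used, called 4 of the 10 at the same thresholds, compared with 3.31% of all genes lower in old, and by adjusted p alone it gave 6, compared with 6.61%. The 4 were Myl9, Mylk, Ppp1r14a and Rock2. limma-voom called 0 of the 10 and 0% of all genes, and gave 7 of the 10 at an unadjusted p under 0.05, compared with 12.6% of all genes lower in old. The median log2 fold change was -0.59 over the 10 genes and 0.018 over all genes.

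**Figure D1:**
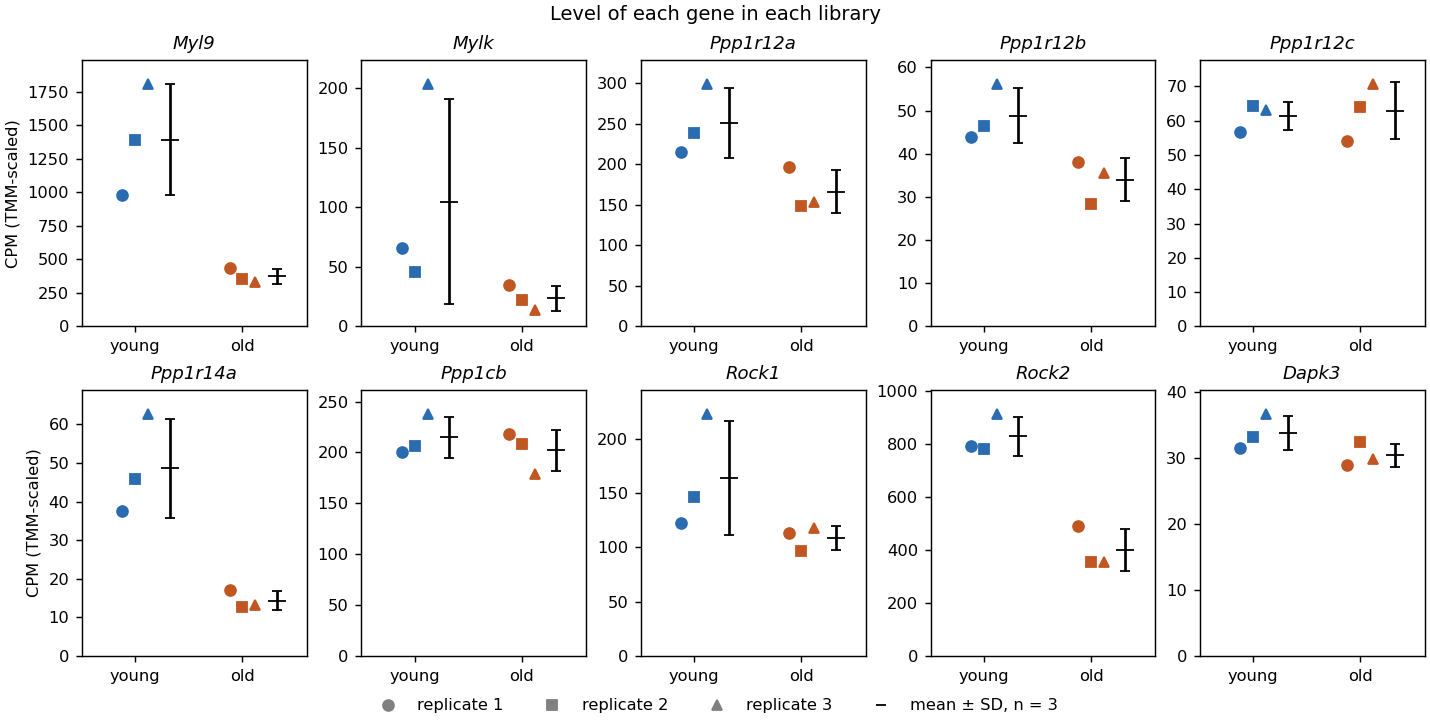
Levels of the 10 genes in TMM-scaled CPM, with 1 panel per gene, an axis from 0, 1 point per library and the mean ± SD of 3 libraries beside the points. The old points of Myl9, Ppp1r14a and Rock2 lie well under the young points, those of Ppp1cb, Ppp1r12c and Dapk3 overlap them, and young replicate 3 is the highest library in 9 of the 10 panels.

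Myl9 (ENSRNOG00000020246) encodes the regulatory light chain that carries the activating phosphate in smooth muscle. It had 978, 1395 and 1806 CPM in young replicates 1, 2 and 3 and 438, 353 and 335 CPM in old replicates 1, 2 and 3. Each young library was well above the highest old library. The means were 1393 ± 414 CPM in young and 375 ± 55.2 CPM in old (SD, n = 3 each), 3.71 times higher in young. The log2 fold change was -1.89 ± 0.25 (SE, 95% interval -2.50 to -1.28, edgeR adjusted p = 0.0531). It was the 226th lowest of the 14475 log2 fold changes. DESeq2 gave an adjusted p of 2.35e-10 for Myl9. Leaving out single libraries kept the value between -2.10 and -1.66, and the edgeR adjusted p ranged from 0.0293 without old replicate 1, the only such fit in which Myl9 was called, to 0.230 without young replicate 2. The coding sequence of Myl9 is close to that of Myl12a, and reads shared by them are uncertain because the handling of multi-mapping reads is not given in the sources used here.

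Ppp1r14a (ENSRNOG00000020676), the gene of the inhibitor CPI-17, showed nearly the same pattern as Myl9. It had 37.5, 45.7 and 62.6 CPM in young against 17.1, 12.7 and 13.3 CPM in old libraries. The groups were apart, with the lowest young library well above the highest old library. Means were 48.6 ± 12.8 CPM in young and 14.4 ± 2.39 CPM in old (SD, n = 3 each). The log2 fold change was -1.76 ± 0.22 (SE, 95% interval -2.29 to -1.22, edgeR adjusted p = 0.0531). DESeq2 gave an adjusted p of 1.02e-09. Left-out libraries moved the log2 fold change between -1.92 and -1.53, with an edgeR adjusted p from 0.0278 without old replicate 1 to 0.225 without young replicate 2.

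Mylk (ENSRNOG00000002215) encodes myosin light chain kinase, the calmodulin-dependent enzyme of the pathway. Its young libraries were far from each other, at 65.9, 45.4 and 203 CPM, and its old libraries were at 34.96, 22.0 and 14.1 CPM. The groups did not overlap, but young replicate 2 and old replicate 1 were close to each other. The log2 fold change was -2.15 ± 0.63 (SE, 95% interval -3.68 to -0.62, edgeR adjusted p = 0.137), with an adjusted p of 0.00399 from DESeq2. Its size rested on young replicate 3. Leaving it out gave a log2 fold change of -1.23, with an adjusted p of 0.242 from edgeR and 0.0534 from DESeq2. The Mylk locus also gives rise to telokin, a short product that starts inside the gene and contains no kinase domain, and counts per gene do not separate it from the kinase.

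Rock2 (ENSRNOG00000004496) and Rock1 (ENSRNOG00000031092) encode the ROCK kinases, which restrain the phosphatase. Rock2 had 794, 780.4 and 915 CPM in young against 492, 355 and 356 CPM in old libraries. Each old library was below each young one, and the young libraries lay close together, with a coefficient of variation of 8.89%. The means of Rock2 were 829.8 ± 73.7 CPM in young and 401 ± 78.9 CPM in old (SD, n = 3 each), and the log2 fold change was -1.05 ± 0.17 (SE, edgeR adjusted p = 0.0600, DESeq2 adjusted p = 1.93e-06). This value is near the fold threshold, and the DESeq2 call was lost when young replicate 3 (-0.98), old replicate 2 (-0.97) or old replicate 3 (-0.98) was left out, with the DESeq2 log2 fold change in parentheses. In edgeR the adjusted p of Rock2 ranged from 0.0262 without old replicate 1, where the log2 fold change was -1.22, to 0.230 without young replicate 2. Rock1 had 123, 147 and 223 CPM in young against 113, 96.4 and 118 CPM in old libraries. Young replicate 1 was only just above old replicate 3, a gap much smaller than the spread of the young libraries. Its log2 fold change was -0.59 ± 0.23 (SE, edgeR adjusted p = 0.203, DESeq2 adjusted p = 0.112) and -0.30 without young replicate 3. Without young replicate 1 its DESeq2 adjusted p was 0.0335.

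The targeting subunits of the phosphatase did not all differ alike. Ppp1r12a (ENSRNOG00000004925) encodes MYPT1, the main targeting subunit of smooth muscle, and had 215, 238 and 298 CPM in young against 196, 149 and 153 CPM in old libraries. Ppp1r12b (ENSRNOG00000051440), which encodes the related MYPT2, had 43.9, 46.4 and 56.1 CPM in young against 38.0, 28.4 and 35.6 CPM in old libraries. In both genes the highest old library was old replicate 1, still below the young libraries. Their log2 fold changes were -0.59 ± 0.17 (SE, edgeR adjusted p = 0.132) for Ppp1r12a and -0.52 ± 0.15 (SE, edgeR adjusted p = 0.133) for Ppp1r12b. DESeq2 gave adjusted p of 0.0291 and 0.0406, which passed its p threshold without the fold threshold, and were at most 0.163 and 0.189 with 1 library left out. Ppp1r12a stayed under 0.05 in DESeq2 only without young replicate 1 (0.0238) or old replicate 1 (0.00103), and Ppp1r12b only without old replicate 1 (0.0111). Ppp1r12c (ENSRNOG00000053828), the gene of another family member, had 56.8, 64.3 and 63.3 CPM in young against 54.2, 64.1 and 70.6 CPM in old libraries. These ranges overlapped, with a log2 fold change of 0.035 and a 95% interval of -0.26 to 0.33 (edgeR adjusted p = 0.882).

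Ppp1cb (ENSRNOG00000004612), the catalytic subunit that myosin phosphatase uses, had 200.5, 206 and 238 CPM in young against 218, 209 and 179 CPM in old libraries. The groups overlapped, and the log2 fold change was -0.089 with a 95% interval of -0.38 to 0.20 (edgeR adjusted p = 0.675). Dapk3 (ENSRNOG00000020383), which encodes ZIP kinase, had 31.6, 33.2 and 36.7 CPM in young against 29.0, 32.4 and 29.9 CPM in old libraries. Its groups overlapped through old replicate 2 alone, and its log2 fold change was -0.15 with a 95% interval of -0.39 to 0.08 (edgeR adjusted p = 0.379). For these genes and Ppp1r12c the intervals lay within a log2 fold change of 1 in either direction.

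**Figure D2:**
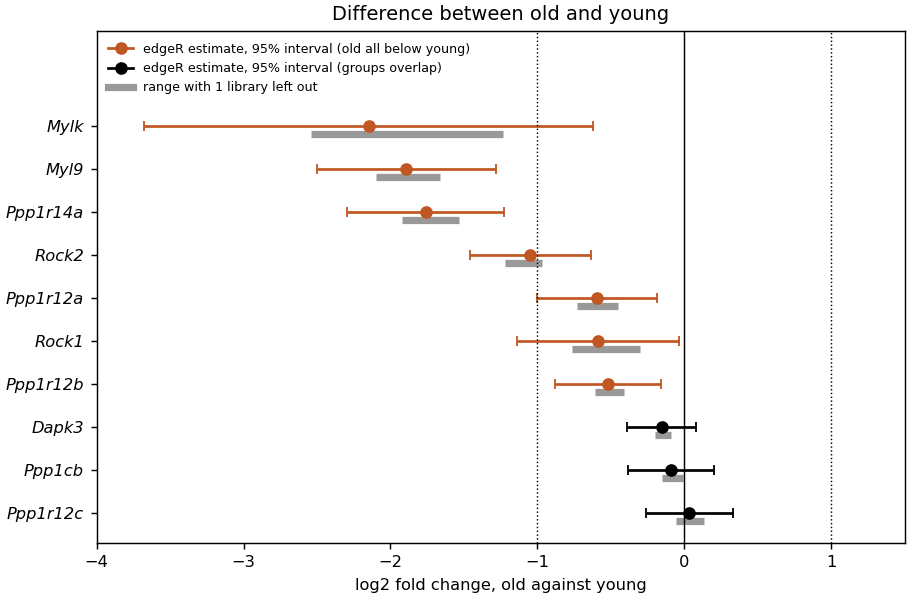
Log2 fold changes from edgeR with 95% intervals, with genes in order of size, dotted lines at the fold threshold of 1 in each direction and grey bars for the range with 1 library left out. Mylk has the widest interval (-3.68 to -0.62), and the intervals of Dapk3, Ppp1cb and Ppp1r12c cross 0.

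The spread between libraries differed among the genes. The coefficient of variation among young libraries was 81.9% for Mylk, 31.9% for Rock1, 29.7% for Myl9 and 26.4% for Ppp1r14a, and between 6.68% and 17.1% for the other genes. Young replicate 3 was the highest of the 6 libraries in 9 of the 10 genes, where it was the highest in 21.1% of all genes. Old replicate 2 was the lowest in 5 of the 10 and old replicate 3 in 3 of them, compared with 17.5% and 23.4% of all genes.

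Upstream sequence was available for 9 of the 10 genes, all but Myl9, from the RefSeq annotation of the rat assembly GRCr8, which is a later assembly than the one the reads were aligned to. Each window holds 250 bases before and 50 bases after a start site. The windows of Mylk, Ppp1r14a and Rock2 are shown because DESeq2 called these genes, and that of Dapk3 as an example of overlapping groups. The levels of Ppp1cb and Ppp1r12c overlapped as well, but their windows are not shown. The windows shown lie at chr11:79498525-79498824 (minus strand, in this assembly inside the span of the gene), chr1:93713852-93714151 (plus strand), chr6:45407866-45408165 (plus strand) and chr7:9183223-9183522 (minus strand). Capitals mark matches, on either strand, to the CArG box bound by serum response factor, to CATTCC, the core of the MCAT element bound by TEAD factors, or to GGGCGG, the core of the GC box bound by Sp and Klf factors. Matches to the GC box can overlap each other.
Mylk: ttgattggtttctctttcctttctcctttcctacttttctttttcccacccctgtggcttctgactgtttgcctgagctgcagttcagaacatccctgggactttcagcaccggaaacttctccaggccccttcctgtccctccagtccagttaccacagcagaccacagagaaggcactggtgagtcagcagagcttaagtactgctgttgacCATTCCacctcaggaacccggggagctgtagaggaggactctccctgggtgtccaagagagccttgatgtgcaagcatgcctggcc
Ppp1r14a: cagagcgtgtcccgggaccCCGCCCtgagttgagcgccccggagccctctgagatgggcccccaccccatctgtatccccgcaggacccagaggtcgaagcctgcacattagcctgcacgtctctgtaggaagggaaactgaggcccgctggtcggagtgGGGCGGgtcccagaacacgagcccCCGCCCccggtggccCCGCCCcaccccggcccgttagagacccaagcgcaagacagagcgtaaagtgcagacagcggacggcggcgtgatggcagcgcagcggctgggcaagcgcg
Rock2: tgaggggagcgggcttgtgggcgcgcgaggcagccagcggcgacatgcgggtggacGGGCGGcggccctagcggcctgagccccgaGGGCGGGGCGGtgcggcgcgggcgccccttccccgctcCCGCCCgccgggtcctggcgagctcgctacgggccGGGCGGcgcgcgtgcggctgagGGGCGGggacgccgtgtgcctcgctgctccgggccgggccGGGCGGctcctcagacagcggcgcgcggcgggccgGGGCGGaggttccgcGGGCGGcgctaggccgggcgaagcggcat
Dapk3: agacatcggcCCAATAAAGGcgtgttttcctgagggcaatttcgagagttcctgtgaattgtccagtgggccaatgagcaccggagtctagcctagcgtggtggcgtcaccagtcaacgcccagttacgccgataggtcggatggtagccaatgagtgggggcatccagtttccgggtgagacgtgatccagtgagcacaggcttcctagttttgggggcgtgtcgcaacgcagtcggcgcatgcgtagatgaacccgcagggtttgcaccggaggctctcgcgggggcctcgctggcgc

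The windows differed in base composition and motifs. Their GC content was 53.7% for Mylk, 69.7% for Ppp1r14a, 82.7% for Rock2 and 60% for Dapk3, with a median of 51.7% over all 33469 windows of the annotation. The windows behind this median and the shares below were not limited to genes with counts in these cells. Mylk held 1 match to CATTCC, a motif found in 14.2% of all windows, and 0 to the GC box. Ppp1r14a held 4 matches to the GC box and Rock2 held 9. The GC box was present in 7 of the 9 windows and in 33.1% of all windows, and the others among the 7 were Ppp1r12a, Ppp1r12b, Ppp1r12c, Ppp1cb and Rock1. Ppp1r12c and Ppp1cb, whose levels overlapped between groups as that of Dapk3 did, held 3 matches each. The CArG box was present in 1 of the 9, the window of Dapk3, and in 1.64% of all windows. A search for TATAAA on both strands found it in 0 of the 9 windows, while 14.2% of all windows held it. A match is a description of these letters, and control elements of smooth muscle genes can lie outside such windows.

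Ratios of counts between genes of the same library do not depend on the scaling between libraries. In all, 7 such ratios were compared between old and young with an exact two-sided permutation test, for which 0.10 is the smallest p that 3 against 3 libraries allow. The log2 ratio of Ppp1r14a to Ppp1cb, the inhibitor over the catalytic subunit, was -2.17 ± 0.25 in young and -3.82 ± 0.19 in old (SD, n = 3 each), a difference of -1.65. The groups did not overlap (exact permutation p = 0.10, adjusted p = 0.175 over 7 ratios). The log2 ratio of Mylk to Ppp1r12a, the kinase over the targeting subunit, differed by -1.35, from -1.55 ± 0.93 to -2.90 ± 0.49 (SD, n = 3 each), with the same exact permutation p of 0.10, and by -0.85 without young replicate 3. Here the groups were apart only by a narrow margin, with young replicate 2 at -2.39 and old replicate 1 at -2.49. The log2 ratio of Myl9 to Myl12a, the smooth muscle over the nonmuscle regulatory light chain, was -0.29, 0.10 and 0.44 in the young and -0.97, -0.82 and -1.01 in the old libraries. Myl9 was thus lower relative to Myl12a in each old library than in each young one, with a mean difference of -1.01 (exact permutation p = 0.10).

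Within the targeting subunits, the log2 ratio of Ppp1r12c to Ppp1r12a was higher in old by 0.62, from -2.02 ± 0.19 to -1.40 ± 0.40 (SD, n = 3 each, exact permutation p = 0.10). The groups were apart by a narrow margin, with young replicate 2 at -1.89 and old replicate 1 at -1.86. The ratio of Ppp1r12b to Ppp1r12a overlapped between groups and differed by 0.068 on the log2 scale (exact permutation p = 0.70). The ratio of Rock2 to Rock1 differed by -0.51 (exact permutation p = 0.20) and that of Dapk3 to Rock1 by 0.40 (exact permutation p = 0.30), and both overlapped. The ratios are of counts and not per length, so only their differences between groups can be read.

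**Figure D3:**
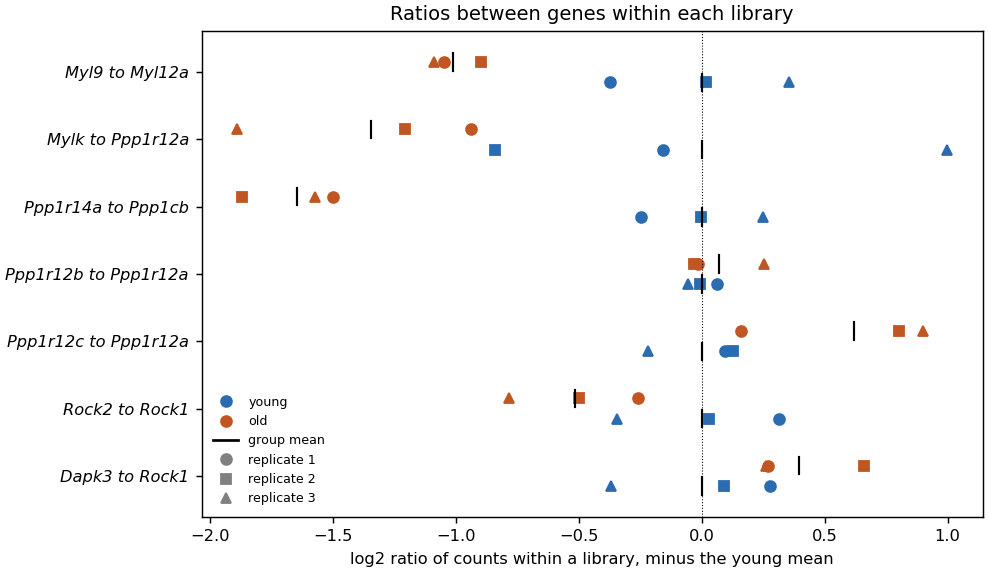
Log2 ratios of counts between genes in each library, set to 0 at the young mean of each ratio, with young and old libraries in separate colours and black lines at the group means. The old points of Ppp1r14a to Ppp1cb lie near -1.65, whereas those of Ppp1r12b to Ppp1r12a lie among the young points except old replicate 3, which lies above them.

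The smooth muscle markers were lower in old as well, so the 10 genes were also set against them. Counts of each gene were divided by the summed counts of the 10 markers (Acta2, Myh11, Cnn1, Tagln, Smtn, Lmod1, Des, Synpo2, Cald1 and Actg2) in the same library, a scale chosen after the data had been seen and given without a test. It raises the median gene by 1.63 in old on the log2 scale, because the markers themselves are lower there. Most of the summed counts came from Acta2, Tagln and Cald1 in each library, so the scale mainly reflects these genes. Their log2 fold changes were unlike, at -2.27 for Acta2, -1.54 for Tagln and -0.87 for Cald1. On this scale Myl9 was at -3.92 ± 0.037 in young and -4.16 ± 0.11 in old (SD, n = 3 each), a difference of -0.24 with the groups apart, where 0.428% of all genes had all old libraries below the young ones. Ppp1r14a differed by -0.12 and Mylk by -0.32, both with overlap. Mylk was at -7.91 ± 0.92 in young and -8.23 ± 0.39 in old (SD, n = 3 each). Its difference was smaller than either SD, and its sign rested on young replicate 3. The other 7 genes were higher in old relative to the markers, by 0.56 for Rock2, the smallest, to 1.65 for Ppp1r12c, the largest, and their groups were apart, as they were for 85.6% of all genes in that direction.

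**Figure D4:**
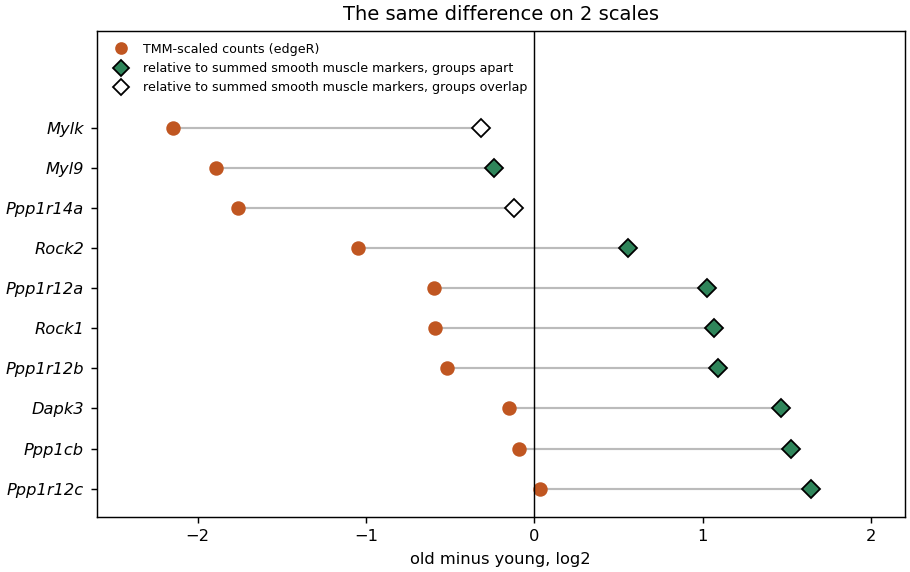
The difference between old and young of each gene on the log2 scale, from TMM-scaled counts in edgeR (circles) and relative to the summed smooth muscle markers (diamonds, filled where the groups were apart). Myl9, Mylk and Ppp1r14a lie between -0.32 and -0.12 on the marker scale and the other 7 genes lie above 0.5. The sign for Mylk on that scale rests on young replicate 3.

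The genes with patterns most like those of Myl9, Mylk and Ppp1r14a were sought among the 12256 others with an average of at least 1 CPM. Likeness was the root mean square difference in log2 CPM over the 6 libraries after each gene had been centred on its own mean. The nearest to Myl9 were Crim1 (0.088), Ppp1r14a (0.10) and Chmp4c (0.13). The nearest to Ppp1r14a were Col15a1 (0.070), Nexn (0.071) and Fhl1 (0.078). Mylk had no such close neighbours, with Rgs7 at 0.29, Igf2bp3 at 0.38 and Mtus2 at 0.42. The log2 fold changes of these neighbours lay between -1.93 and -1.62, so the age groups enter each likeness.

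The pathway around the 10 genes was followed in 7 lists of 79 genes, of which 66 had a row, and the other genes, Myl12b, Rhob and Mylk2 among them, were not analysed here. Of the 66 genes 48 were lower and 18 higher in old, and their median log2 fold change was -0.22. The old libraries all lay below the young ones in 15 of them (22.7%, compared with 14.7% of all genes) and all above in 3 (4.55%, compared with 14.5% of all genes). edgeR called 0 of the 66, with 12 lower and 3 higher at an unadjusted p under 0.05, compared with 11.5% and 11.2% of all genes. DESeq2 called 3 at both thresholds, compared with 5.56% of all genes, and limma-voom 0. Those 3 were Dapk1, Myl4 and Ppp1r16b.

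**Figure D5:**
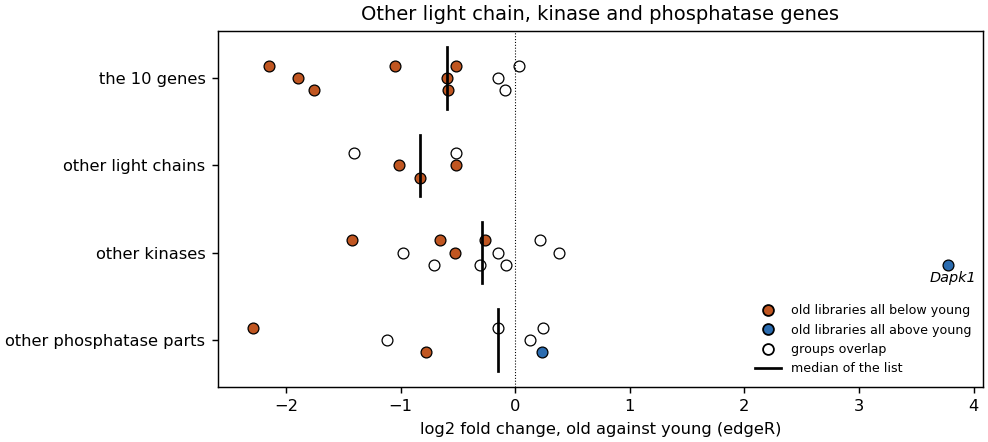
Log2 fold changes from edgeR of the 10 genes and of the other light chain, kinase and phosphatase genes, with 1 point per gene, colour for groups that do not overlap and a black line at the median of each list. The other light chains lie below 0 as a list (median -0.83), and Dapk1, with young libraries below 1 CPM, stands alone at 3.78.

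Dapk1, the founding member of the death-associated protein kinase family to which ZIP kinase belongs, differed most and in the opposite direction to the light chain genes. It had 0.310, 0.698 and 0.448 CPM in young against 3.98, 10.6 and 5.63 CPM in old libraries, from 14, 42 and 22 counts to 198, 550 and 302 counts. Every old library was above every young one, with means 13.9 times higher in old. This ratio rests on young levels below 1 CPM. Dapk1 met the average of 1 CPM needed for naming through its old libraries alone. The log2 fold change was 3.78 ± 0.50 (SE, edgeR adjusted p = 0.0531, DESeq2 adjusted p = 1.28e-11). Of the 12 kinases of this list in the table, 9 were lower and 3 higher, where 48.0% of all genes were lower, and 4 had all old libraries below the young ones, as had 14.7% of all genes. Mylk3, the cardiac light chain kinase, had the lowest log2 fold change of the list, -1.42 (edgeR adjusted p = 0.182), at 1.55 to 4.19 CPM in young and 0.616 to 1.53 CPM in old.

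All 5 other light chains in the table were lower in old, as were 48.0% of all genes, and 3 had all old libraries below the young ones, as had 14.7% of all genes. Myl12a, the nonmuscle regulatory light chain, had 1199, 1303 and 1336 CPM in young against 858, 622 and 674 CPM in old libraries. Its log2 fold change was -0.83 ± 0.16 (SE, edgeR adjusted p = 0.0732, DESeq2 adjusted p = 3.30e-05). Myl6, the essential light chain of smooth and nonmuscle myosin, had a log2 fold change of -0.51 (edgeR adjusted p = 0.164, DESeq2 adjusted p = 0.0309). Myl4, an embryonic and atrial essential light chain, was at 1.36 to 2.57 CPM in young and 0.866 to 1.09 CPM in old, and its log2 fold change was -1.01 (edgeR adjusted p = 0.144).

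Of the calmodulin genes, Calm2 overlapped between groups, with a log2 fold change of -0.24 (edgeR adjusted p = 0.536). In Calm3 the old libraries lay below the young ones, with a log2 fold change of -0.21 (edgeR adjusted p = 0.274). Of the CaM kinase II genes, Camk2b was at -1.12 on the log2 scale, at 0.442 to 1.67 CPM over the libraries, and Camk2d was at -0.13.

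Among the other phosphatase genes, Mprip, whose product links the phosphatase to RhoA and actin, had 454, 612 and 787 CPM in young against 362, 344 and 372 CPM in old libraries. Its groups were apart, with a log2 fold change of -0.78 ± 0.21 (SE, edgeR adjusted p = 0.116, DESeq2 adjusted p = 0.00909). The catalytic subunit genes differed less. Ppp1cc was higher in old with groups apart, at 122 to 130 CPM in young and 146 to 154 CPM in old (log2 fold change 0.23, edgeR adjusted p = 0.179), and Ppp1ca overlapped (log2 fold change -0.15, edgeR adjusted p = 0.580). The inhibitor genes related to Ppp1r14a overlapped as well, with a log2 fold change of 0.13 for Ppp1r14b and -1.12 for Ppp1r14c, the lowest of the list above 1 CPM (edgeR adjusted p = 0.338). The highest was Ppp1r16a, a targeting subunit of the same family, at 0.24. Ppp1r16b was lower in old by DESeq2 (adjusted p = 0.0177), at no more than 1.30 CPM in a library.

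Prkca, a protein kinase C gene whose product can phosphorylate CPI-17, overlapped between groups, with a log2 fold change of -0.23 (edgeR adjusted p = 0.583).

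Rhoa, the gene of the GTPase that activates the ROCK kinases, overlapped between groups (log2 fold change -0.12, edgeR adjusted p = 0.627). Rhoc had 238, 233 and 244 CPM in young against 172, 175 and 134 CPM in old libraries, with groups apart. The log2 fold change of Rhoc was -0.57 ± 0.13 (SE, edgeR adjusted p = 0.0924, DESeq2 adjusted p = 0.00226). Rnd3, whose product inhibits ROCK1, overlapped, with a log2 fold change of -0.50 (edgeR adjusted p = 0.520). Ect2, an exchange factor of dividing cells, had a log2 fold change of -1.41 (edgeR adjusted p = 0.256), with old replicate 1 at 39.6 CPM and the other old libraries at 10.2 and 6.75 CPM. Rnd2 had a log2 fold change of 0.47 (edgeR adjusted p = 0.329).

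Stard13, the gene of a GTPase-activating protein, had groups apart, at 114, 124 and 131 CPM in young against 86.2, 72.2 and 66.0 CPM in old libraries. Its log2 fold change was -0.72 ± 0.13 (SE, edgeR adjusted p = 0.0644, DESeq2 adjusted p = 0.000122). Arhgap10, of the same kind, overlapped, with a log2 fold change of 0.16 (edgeR adjusted p = 0.558).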

How the data were processed

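RNA of cultured VSM cells from 3 young and 3 old rats was sequenced in paired reads. Per the labels and the Methods, the authors trimmed reads with cutadapt 3.5 through Trim Galore 0.6.7, aligned them to Rnor 6.0 with STAR 2.7.10b and counted genes with featureCounts of Subread 2.0.8. The deposited values are raw counts per gene without normalization, from which genes with low counts had been removed. How strand, mates and multi-mapping reads were handled is not given in the sources used here, and overlapping, antisense and near-identical genes are therefore uncertain. Between 68.7% and 71.1% of counts from 1 to 19 were even, as counting both mates would leave. Each library also held more counts on genes than the largest number of reads per sample given in the Methods. The counts given here are therefore not numbers of sequenced fragments.

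Libraries were grouped by the age in their titles. All 14475 genes were fitted in R 4.3.3 with edgeR 4.0.16 (TMM, quasi-likelihood F test, Benjamini-Hochberg adjustment, young as reference, no covariates), with DESeq2 1.42.0 and limma-voom (limma 3.58.1) as alternatives. The study used DESeq2 1.46.0. Standard errors came from the size of the log2 fold change and the root of F. The steps were tested on simulated counts. Replicates within a group were different libraries, with a chi-square per gene of at least 67.3 between them. The p-values measure the spread between these cultures.

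The genes, lists and tests were chosen with earlier results of these data known. Named genes were the 10 genes, the lowest and highest log2 fold change of each list above 1 CPM on average, a set of pathway genes fixed by name, and the 3 nearest patterns of 3 genes. Ppp1r16b was named after its values were seen. List symbols were matched to the table, and Mylpf was found as Myl11 through an older symbol in the RefSeq table of GRCr8. The planned ratio of Myl9 to Myl12a plus Myl12b was computed with Myl12a alone. Coordinates of the assembly used for alignment and protein sequences were not used here. Some genes and lists of the pathway are counted in the totals but not reported here. No column of values was left unused.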

Additional observations from a re-analysis of the deposited data

How the results depend on the processing

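The number of the 10 genes called was 0 in edgeR with RLE, upper-quartile or library-size scaling, with both other filters, with halved counts, with the replicate number as a block and in limma-voom. Across these scalings the median of all genes stayed between 0.011 and 0.033. The number called was 4 in DESeq2, 6 in DESeq2 with the p threshold alone and 3 in edgeR at an adjusted p under 0.1. With 1 library left out it ranged from 0 to 3 in edgeR, the 3 being Myl9, Ppp1r14a and Rock2 without old replicate 1, and from 2 to 4 in DESeq2. For the other pathway genes these counts were 0, 3, 11 and 1, with 0 to 2 in edgeR and 2 to 7 in DESeq2 with a library left out, where the genes called in the whole table numbered 0 to 732 and 551 to 1377. The highest of each came without old replicate 1. The cause of these differences was not tested.

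The number of the 10 genes with old below young was 7 under each scaling and 7 or 8 with a library left out. For the other pathway genes it was 15 to 17 under each scaling and ranged from 16 to 30 with a library left out, with 3 to 9 for old above young, in both cases most without old replicate 1, where the shares of all genes were also highest, at 25.8% below and 26.8% above. Ppp1r12c changed sign at values near 0, to -0.022 in edgeR and -0.030 in DESeq2 without young replicate 1 and to -0.056 and -0.065 without old replicate 3, within -0.056 to 0.13 in edgeR for left-out libraries. The ratio of Ppp1r12b to Ppp1r12a did so without old replicate 3, at -0.023, within a range of -0.023 to 0.12 for left-out libraries. The other 9 genes and 6 ratios kept their direction.

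Same-numbered libraries of the age groups had correlated deviations of 0.062, 0.324 and 0.317, and those of different number ranged from -0.457 to 0.357. Young replicates 2 and 3 correlated best with the old library of their own number, and young replicate 1 with old replicate 2 (0.357). These values do not settle whether the numbers mark pairs. The main fit did not use them, and a fit with the number as a block is given beside it. With the block 0 of the 10 genes were called, and 1 gene of the whole table was called with the block and 1 without it. Blocked log2 fold changes were -1.86 for Myl9, -1.87 for Mylk, -1.74 for Ppp1r14a and -1.06 for Rock2. The 10 genes had at least 659 counts in each library.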

Other observations

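Mylip, which encodes a ubiquitin ligase known to bind the myosin regulatory light chain and the LDL receptor, is in none of the lists and was chosen after its values were seen. Young libraries held 6.85, 4.64 and 5.25 CPM of Mylip against 20.2, 32.4 and 23.7 CPM in old libraries. Each old library was above each young one, as in 14.5% of all genes. Its log2 fold change was 2.19 ± 0.24 (SE, edgeR adjusted p = 0.0531, DESeq2 adjusted p = 5.66e-14).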
